A study of Homo sapiens with 2 samples.

Results

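The intercellular adhesion molecule (ICAM) gene family consists of ICAM1, ICAM2, ICAM3, ICAM4, and ICAM5, and these 5 genes of the 33538 genes in the tables were taken by name. All 5 were listed in both tables. HCT116, a human colon cancer cell line, was either treated with decitabine (DAC), a cytidine analog that traps DNA methyltransferases, or mock-treated, and 1 scRNA-seq library was prepared for each treatment. The DAC-treated culture received 2 doses of 0.5 µM, on days 1 and 3 of a 7-day culture whose last stretch, from day 5, was free of drug, and the mock-treated culture received 0 µM. The values are counts of unique molecular identifiers (UMIs), tags that count each captured RNA molecule once, read near the poly(A) tail of the transcript. Pairs of values are given with the mock-treated library before the DAC-treated one. With 1 library for each treatment, no difference has a replicate check and no p-value is given.

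ICAM proteins are transmembrane members of the immunoglobulin superfamily, and they serve as ligands of the leukocyte integrins, which share the beta chain encoded by ITGB2. ICAM-1 is low on resting epithelial and endothelial cells and is induced by inflammatory cytokines through NF-kB and by interferon gamma through JAK-STAT signaling. ICAM-2 is best known on endothelium and platelets, ICAM-3 on leukocytes, ICAM-4 on erythroid cells as the Landsteiner-Wiener blood group antigen, and ICAM-5 (telencephalin) on neurons of the forebrain.

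ICAM1, ICAM4, and ICAM5 lie head to tail on the plus strand of 19p13, and ICAM3 follows on the minus strand. In hg38 with GENCODE release 44, all as protein-coding genes, ICAM1 (ENSG00000090339) spans chr19:10271093-10286615, ICAM4 (ENSG00000105371) chr19:10286955-10288522, and ICAM5 (ENSG00000105376) chr19:10289952-10296778. ICAM3 (ENSG00000076662) spans chr19:10333776-10339661, and ICAM2 (ENSG00000108622) is located apart from them, at chr17:64002594-64020634 on the minus strand. Only 339 bases separate the end of ICAM1 from the start of ICAM4, and 1429 bases separate ICAM4 from ICAM5, whereas 36997 bases separate ICAM5 from ICAM3.

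Since DNA methylation in mammals lies mainly at CpG sites, the promoters of the members are shown for their CpG content, from 250 bases before to 50 bases after the transcription start. RefSeq sequences of GRCh38.p14 were matched by symbol for 4 of the 5 genes, and ICAM2 had no entry. The windows are chr19:10270870-10271169 for ICAM1, chr19:10286705-10287004 for ICAM4, and chr19:10289702-10290001 for ICAM5, all on the plus strand, and chr19:10339575-10339874 on the minus strand for ICAM3. Capitals mark CpG dinucleotides, and each sequence is written 5′ to 3′ on the strand of the gene.
ICAM1: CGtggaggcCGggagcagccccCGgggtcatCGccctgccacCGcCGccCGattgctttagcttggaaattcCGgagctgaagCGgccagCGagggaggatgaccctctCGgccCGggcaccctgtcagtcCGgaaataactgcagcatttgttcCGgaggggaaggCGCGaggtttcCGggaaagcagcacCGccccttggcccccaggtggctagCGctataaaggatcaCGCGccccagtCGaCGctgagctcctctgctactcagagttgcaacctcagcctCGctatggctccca
ICAM4: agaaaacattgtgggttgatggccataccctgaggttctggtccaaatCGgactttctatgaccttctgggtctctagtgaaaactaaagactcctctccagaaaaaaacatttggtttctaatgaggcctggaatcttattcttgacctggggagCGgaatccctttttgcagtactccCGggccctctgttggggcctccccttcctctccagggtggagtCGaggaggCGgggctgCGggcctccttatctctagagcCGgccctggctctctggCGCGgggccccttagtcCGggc
ICAM5: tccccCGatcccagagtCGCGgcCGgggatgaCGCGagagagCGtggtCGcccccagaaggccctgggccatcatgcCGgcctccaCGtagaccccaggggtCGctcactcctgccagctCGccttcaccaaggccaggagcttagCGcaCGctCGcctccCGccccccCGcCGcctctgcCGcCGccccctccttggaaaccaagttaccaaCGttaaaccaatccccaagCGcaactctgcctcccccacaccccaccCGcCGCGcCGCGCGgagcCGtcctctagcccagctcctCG
ICAM3: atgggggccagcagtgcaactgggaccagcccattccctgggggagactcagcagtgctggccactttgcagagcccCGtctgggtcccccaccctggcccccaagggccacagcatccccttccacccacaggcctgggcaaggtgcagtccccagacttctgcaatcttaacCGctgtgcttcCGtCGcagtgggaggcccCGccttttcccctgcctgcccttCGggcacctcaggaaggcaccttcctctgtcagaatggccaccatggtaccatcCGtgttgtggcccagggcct
The promoter of ICAM5 contained 30 CpGs and that of ICAM1 contained 24, more than 77.6% and 66.1% of the 35116 RefSeq promoters, whose median was 14. ICAM4 had 10 CpGs and ICAM3 had 7 at this start, and at 2 other starts listed for ICAM3 they numbered 14 and 19. Methylation of these windows was not analysed here.

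A set of 5 short motifs was searched on both strands of these windows, with positions counted from the transcription start and negative before it. No matches overlapped. The NF-kB motif GGAAATTCC was found in the ICAM1 promoter from position -186, and 0.461% of all promoters held it. The same window held the STAT motif TTCNNNGAA from position -75 (7.66% of promoters) and TATAAA from position -30 (11.5% of promoters). The ICAM4 promoter held AGATAA, the motif of GATA factors, on the other strand from position -2 (10.3% of promoters). The GC box GGGCGG, in 45.0% of promoters, was present at 2 places each in the ICAM1 and ICAM5 promoters. None of the 5 motifs was in the ICAM3 window shown, while the ICAM3 window with 19 CpGs held the GC box from positions -188 and -33. A match is a match of letters in these windows and not a measured binding site.

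The libraries held 1783 and 1751 cells and 49911689 and 59046165 UMIs, with medians of 27899 (range from 500 to 148446) and 35340 (range from 501 to 110116) UMIs per cell. Of these cells, 395 and 458 cells had fewer than 10000 UMIs, and mitochondrial genes took more than 50% of the UMIs in 311 and 319 cells. There were 12 cell barcodes present in both libraries. Among 8 markers of colon epithelium, the keratin gene KRT18 was at 2029.6 and 4280 UMIs per 1000000 UMIs of the library (CPM). The epithelial adhesion gene EPCAM was at 349 and 222 CPM and CLDN7 at 323 and 153 CPM. CDX1, a transcription factor of the intestine, had 0 and 58 UMIs. In this list, 5 markers had a higher CPM after DAC and 3 a lower one.

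By summed UMIs, 4 of the 5 ICAM genes were higher after DAC than after mock treatment, and ICAM5 was lower. ICAM2 and ICAM4 were nearly without UMIs in mock-treated cells. All 5 genes had 20 UMIs or more over both libraries, and the CPM ratio of DAC-treated to mock-treated cells was 2 or more for 4 of 5 and 0.5 or less for 0 of 5. Of the 4, ICAM2 and ICAM4 had fewer than 20 UMIs without DAC and were compared only through their UMIs with DAC. Among the 17368 genes with 20 UMIs or more, 22.8% had a ratio of 2 or more (3966 genes) and 7.86% had a ratio of 0.5 or less (1365 genes). Their median log2 ratio was 0.29, so that a higher CPM after DAC was the more common direction. The median log2 CPM ratio of the 20252 genes with UMIs in both libraries was 0.24, and relative to this shift the log2 ratios were 7.64 for ICAM2, 5.65 for ICAM4, 1.88 for ICAM1, 1.07 for ICAM3, and -0.85 for ICAM5. Intervals in the following are exact, at the 95% level, and cover counting error only.

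**Figure D1:**
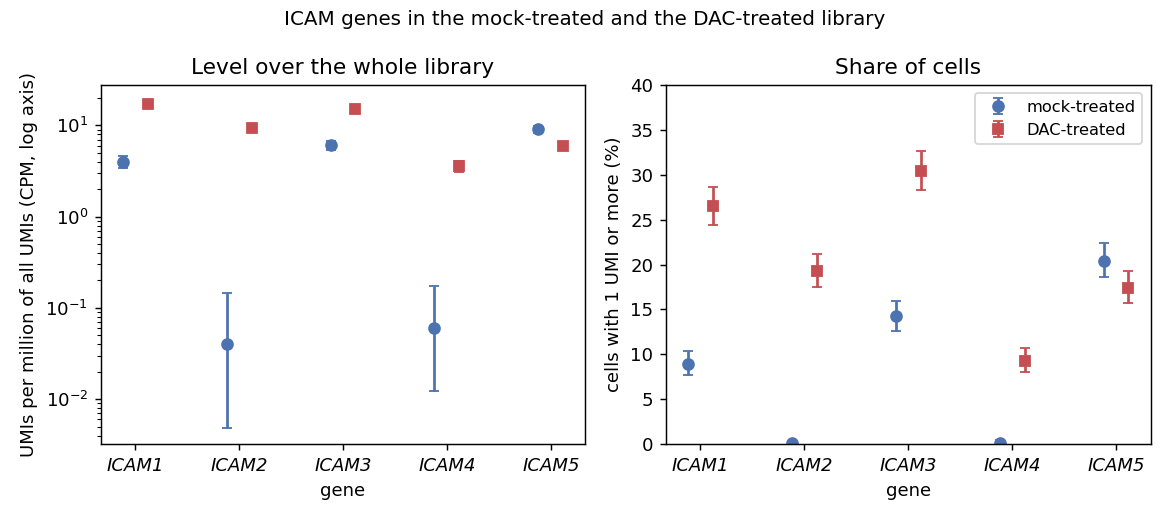
Level of each ICAM gene in CPM on a log axis (left) and percent of cells with 1 UMI or more (right) in the mock-treated (blue circles) and DAC-treated (red squares) library, with 95% intervals for counting error. ICAM2 and ICAM4 lie near 0.0401 and 0.0601 CPM without DAC and at 9.43 and 3.56 CPM with DAC, and ICAM5 is the gene with the lower value with DAC.

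ICAM4, the erythroid member, had 3 UMIs in 3 of the 1783 mock-treated cells, while 163 of the 1751 DAC-treated cells held 210 UMIs. The level was 0.0601 CPM (0.0124–0.176) and 3.56 CPM (3.09–4.07), a ratio of 59.2 (19.97–289). The wide interval stems from the 3 mock-treated UMIs, and the ratio was 109 as a mean of per-cell CPM and 86.6 without the cell with the most ICAM4 UMIs in each library. The share of cells with ICAM4 was 0.168% (0.0347–0.491%) and 9.31% (7.99–10.8%). The libraries hold 1 cell line, so that no cell type without ICAM genes was present to measure free RNA. No mock-treated cell had more than 1 UMI, and 33 DAC-treated cells had 2 or more, with a maximum of 5. ICAM4 had the lowest level of the family in DAC-treated cells.

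Upregulation, which the study defines as 3 UMIs or more in a cell, was reached for ICAM4 in 10 cells with DAC and in 0 without, and 0 of 1783 cells is compatible with at most 0.207% of them. Had the 210 UMIs been spread over cells in proportion to the UMIs of each cell, 1.17 cells would have reached 3 UMIs and 1559 cells would have had none, against 1588 observed. ICAM4 was among 14099 genes that never exceeded 2 UMIs in a mock-treated cell, and ranked 638 by mean UMIs among the 10851 of these with a higher mean in DAC-treated cells. The antisense transcript AC011511.5 (ICAM4-AS1), which overlaps exons of ICAM4 and ICAM1, had 29 and 32 UMIs, a ratio of 0.933 (0.547–1.60). How the counting used strand is not given in the sources used here, so that reads of overlapping genes on opposite strands may have been shared.

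Markers of the erythroid lineage were sparse in both libraries. Of 8 markers, 5 had a higher CPM after DAC and 3 were at 0 UMIs in both libraries, beside a median log2 ratio of 0.29 over all genes tested. Their summed level was 1.00 and 3.07 CPM. HBA1, an alpha globin gene, had 11 and 84 UMIs. The defining markers GYPB and ALAS2 were at 0 UMIs in both libraries, and KLF1, an erythroid transcription factor, had 0 and 5 UMIs.

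ICAM2, the endothelial member on 17q, had 2 UMIs, each in its own cell, without DAC, and 557 UMIs in 338 cells with DAC. Its level was 0.0401 CPM (0.00485–0.145) and 9.43 CPM (8.67–10.3), a ratio of 235 (64.9–1949), which had the highest point value in the family. Its interval overlapped that of ICAM4, so that these ratios could not be ordered at this depth. The ratio ranged with the few mock-treated UMIs: it was 466 with cells of 10000 UMIs or more and at most 50% mitochondrial UMIs, 449 without the cell with the most ICAM2 UMIs, and 141 as a mean of per-cell CPM. The share of cells was 0.112% (0.0136–0.405%) and 19.3% (17.5–21.2%).

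Of the DAC-treated cells, 47 reached 3 UMIs of ICAM2 (2.68%, 1.98–3.55%), where an even share of the UMIs would give 16.6 cells, and no mock-treated cell had 2. A single cell had 27 UMIs and the next had 8. Cells without any ICAM2 UMI numbered 1413, against 1309 under an even share. ICAM2 ranked 136 among the 10851 genes described for ICAM4. PRR29, on the other strand, overlaps exons of ICAM2 and had 0 and 13 UMIs, and the nearby PRR29-AS1 had 3 and 10.

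Endothelial markers were low in both libraries. Of 8 markers, 6 had a higher CPM after DAC and 2 a lower one, beside a median log2 ratio of 0.29 over all genes tested. The summed level of the markers was 2.76 and 10.7 CPM. Among them, ESAM had 119 and 433 UMIs, VWF had 6 and 62, and TIE1 had 4 and 54. The junction gene CDH5 had 0 and 5 UMIs, and EMCN had 4 and 0. The part of endothelial gene expression in the ICAM2 value was not tested.

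ICAM1, the cytokine-inducible member, had 199 UMIs in 160 cells without DAC and 1020 UMIs in 464 cells with DAC. Its level was 3.99 CPM (3.45–4.58) and 17.3 CPM (16.2–18.4), a ratio of 4.33 (3.72–5.07). ICAM1 was detected in 8.97% (7.69–10.4%) of the cells without DAC and 26.5% (24.4–28.6%) of those with DAC. The intervals did not overlap in either measure.

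The UMIs of ICAM1 were held unevenly by the cells. The maximum without DAC was 5 UMIs, and with DAC it was 74, followed by 41 and 18. The 10 highest DAC-treated cells held 21.0% of the ICAM1 UMIs, against 16.2% for ICAM4, 14.4% for ICAM2, 9.73% for ICAM3, and 7.43% for ICAM5. Cells without ICAM1 numbered 1287 in the DAC-treated library, where an even share would leave 1069, and 93 cells reached 3 UMIs, where an even share would give 71.6. In the mock-treated library 8 cells reached 3 UMIs, against 0.927 under an even share. The cell with 74 UMIs had 27392 UMIs over all genes and no UMI of ICAM2, ICAM3, or ICAM5. Without the highest cell of each library the ratio of ICAM1 was 4.12.

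Of 11 cells with 10 UMIs or more of any ICAM gene, all were DAC-treated. There were 9 such cells for ICAM1, 1 for ICAM2, and 1 for ICAM3, and in none of them did a second ICAM gene exceed 3 UMIs.

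ICAM3, the leukocyte member, had 302 UMIs in 254 cells without DAC and 884 UMIs in 533 cells with DAC. The level was 6.05 CPM (5.39–6.77) and 15.0 CPM (14.0–16.0), a ratio of 2.47 (2.17–2.83). It was the most often detected member after DAC, in 30.4% of cells (28.3–32.7%) against 14.2% (12.7–16.0%) without DAC. Cells with 3 UMIs or more numbered 3 and 79, where an even share would give 2.96 and 51.6, and the highest DAC-treated cell had 33 UMIs and the next 9. AC114271.1, an RNA on the other strand that overlaps exons of ICAM3, had 76 and 168 UMIs, a ratio of 1.87 (1.42–2.48).

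Of 8 leukocyte markers, 8 had a higher CPM after DAC, beside a median log2 ratio of 0.29 over all genes tested. Their summed level was 1.82 and 13.0 CPM. CORO1A, an actin regulator of blood cells, had 45 and 415 UMIs, and LAPTM5 had 6 and 150. PTPRC, which encodes the pan-leukocyte antigen, had 0 and 16 UMIs, and the T cell gene CD3E had 0 and 24. Their part in the ICAM3 value was not tested.

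ICAM5, the neuronal member, was the only one of the 5 genes with fewer UMIs after DAC. It had 453 UMIs in 364 cells without DAC and 350 UMIs in 305 cells with DAC. Its level was 9.08 CPM (8.26–9.95) and 5.93 CPM (5.32–6.58), a ratio of 0.653 (0.566–0.753). The share of cells was 20.4% (18.6–22.4%) and 17.4% (15.7–19.3%), a difference of -3.00 percentage points (-5.61 to -0.37, by Newcombe's method from the exact intervals). The largest count in a cell was 4 and 3 UMIs, and the number of DAC-treated cells without ICAM5, 1446, was close to the 1449 of an even share.

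The ICAM5 level was compared within ranges of the UMIs of the cell. It was 9.82 and 5.11 CPM in cells with 50000 UMIs or more, and 8.37 and 5.87 CPM in cells with 30000 to 49999. In cells with 10000 to 29999 UMIs, the values were 9.27 and 9.77 CPM, and in cells with more than 50% mitochondrial UMIs they were 10.2 and 12.2 CPM. Cells with fewer than 10000 UMIs had 18 and 10 UMIs of ICAM5, at 10.97 and 8.51 CPM, and 4.56% and 2.18% of them held the gene. ICAM5 was thereby lower after DAC in 3 of the 4 ranges of UMIs. The part of depth and mitochondrial content in the ICAM5 ratio was not tested.

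Neuronal markers were mixed. Of 8 markers, 5 had a higher CPM after DAC and 3 a lower one, beside a median log2 ratio of 0.29 over all genes tested. The summed level was 185 and 52.2 CPM, and it was set by SYT1, a synaptic vesicle gene, at 179 and 34.0 CPM. STMN2 and NEFL had 0 UMIs each without DAC and 72 and 77 with DAC, respectively. Their part in the ICAM5 value was not tested.

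**Figure D2:**
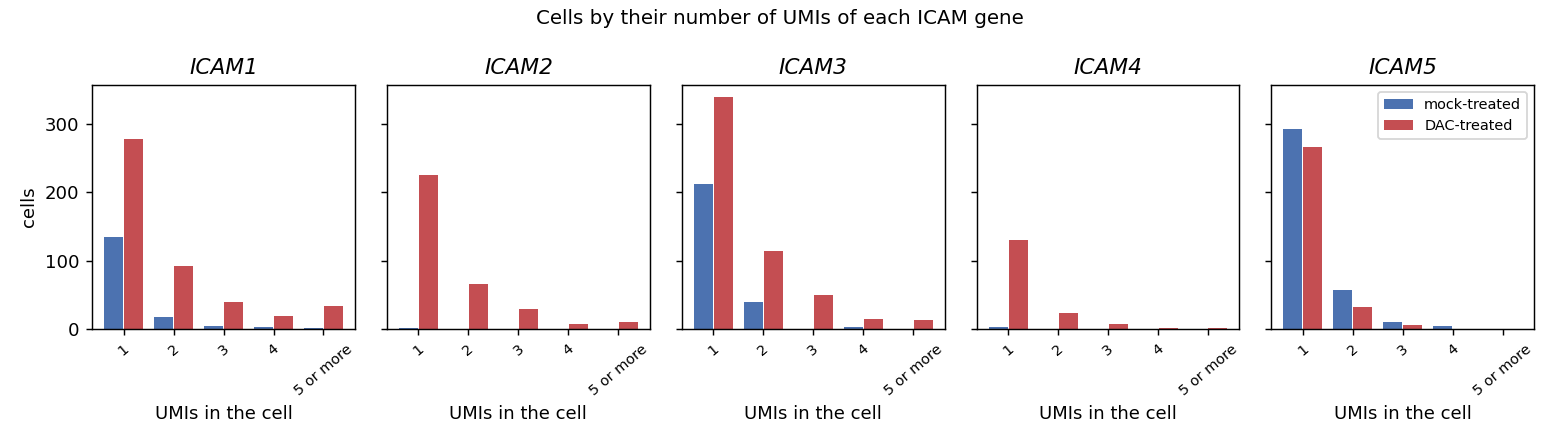
Number of cells (vertical axis) with 1, 2, 3, 4, or 5 and more UMIs of each ICAM gene (horizontal axis) in the mock-treated (blue) and DAC-treated (red) library. ICAM2 and ICAM4 have bars almost only after DAC, 34 DAC-treated cells have 5 UMIs or more of ICAM1, and only for ICAM5 are the mock-treated bars the higher ones.

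By level, the order in mock-treated cells was ICAM5, ICAM3, ICAM1, ICAM4, and ICAM2. The intervals of neighbours in this order did not overlap except for ICAM4 and ICAM2, which could not be told apart. In DAC-treated cells the order was ICAM1, ICAM3, ICAM2, ICAM5, and ICAM4, and no neighbours overlapped. Without the cell with the most UMIs of each gene, ICAM1 was at 16.0 CPM (15.0–17.1) and ICAM3 at 14.4 CPM (13.5–15.4), so that the order was the same and the intervals overlapped. These are levels in UMIs, which count molecules once and were not divided by gene length. By the share of cells the DAC-treated order differed, with ICAM3 first and ICAM1 following at intervals that overlapped slightly, from 28.3% and up to 28.6%. ICAM2 and ICAM5 also overlapped by share.

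Detection moved with the UMIs of the cell. With DAC and fewer than 10000 UMIs, 3.28% of cells had ICAM1 and 0.873% had ICAM2, whereas with 50000 UMIs or more, 43.6% had ICAM1 and 35.8% had ICAM2. For ICAM3 these shares were 1.31% and 56.9%, and for ICAM4 1.09% and 17.2%. The level of ICAM3 also differed with depth, from 5.96 to 16.1 CPM on 7 and 509 UMIs, while that of ICAM4 ranged from 5.96 to 3.44 CPM on 7 and 109 UMIs. Among DAC-treated cells with more than 50% mitochondrial UMIs, ICAM1 and ICAM5 were found in 14.1% and 13.5%, and ICAM2, ICAM3, and ICAM4 in 3.45%, 4.08%, and 3.45%.

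**Figure D3:**
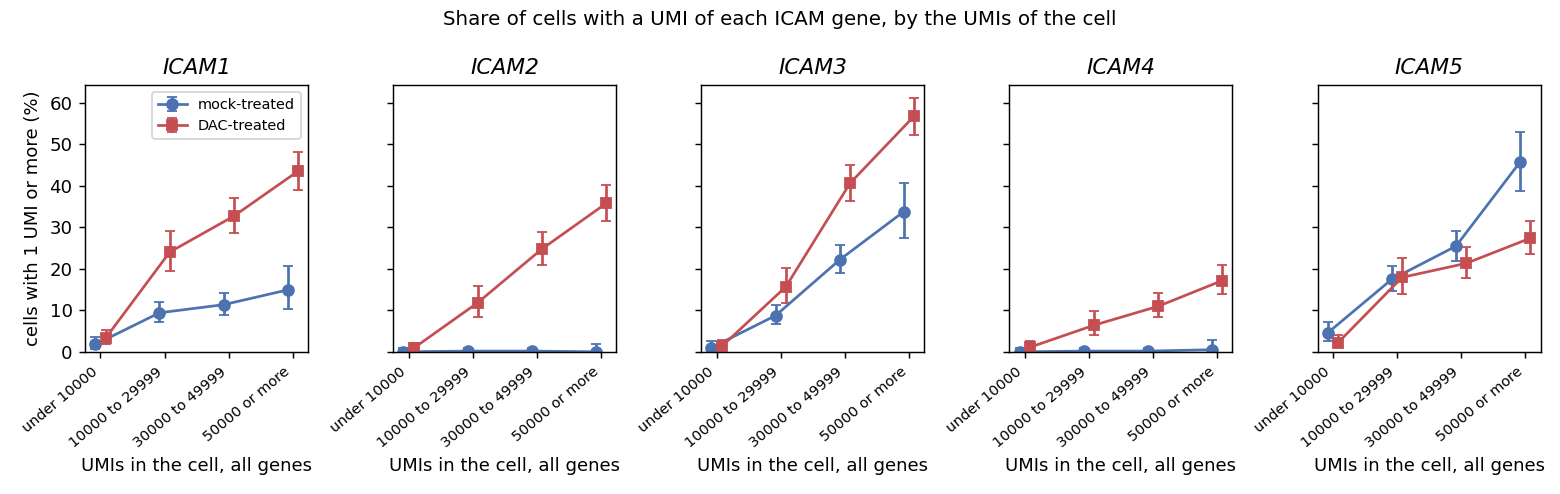
Percent of cells with 1 UMI or more of each ICAM gene (vertical axis, with 95% intervals) against the UMIs of the cell over all genes (horizontal axis, 4 ranges), for mock-treated (blue circles) and DAC-treated (red squares) cells. In cells with 50000 UMIs or more, ICAM3 reaches 56.9% after DAC, and ICAM5 is at 45.8% without DAC and 27.4% with DAC.

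To compare shares at equal depth, the 1388 and 1293 cells that had 10000 UMIs or more were thinned to 10000 UMIs each. The share with ICAM1 was then 4.06% and 12.5%, that with ICAM3 was 5.40% and 12.4%, and that with ICAM2 was 0.0727% and 7.72%. ICAM4 was found in 0.0499% and 3.33% of the thinned cells. ICAM5 was found in 8.45% and 6.34%. The direction of each of the 5 differences was the one seen without thinning.

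As a family, the 5 genes had 959 and 3021 UMIs, a ratio of 2.66 (2.48–2.87). At least 1 ICAM gene was detected in 640 cells without DAC (35.9%, 33.7–38.2%) and in 1033 with DAC (59.0%, 56.6–61.3%). The 4 genes of 19p13 alone had 957 and 2464 UMIs, and were detected in 35.8% and 54.1% of the cells.

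Cells with more than 1 ICAM gene were common after DAC, and their number was close to that given by the separate shares of the genes. With the shares taken within 10 groups of cells of like total UMIs, 539.5 DAC-treated cells would hold 2 or more ICAM genes, and 542 did (31.0%, 28.8–33.2%). In the mock-treated library the numbers were 129.4 and 129. Among DAC-treated cells, 718 had none of the genes, 491 had 1, 359 had 2, 142 had 3, 37 had 4, and 4 had all 5.

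For each of the 10 pairs of genes in DAC-treated cells, the interval of the observed number of cells held the number given by the shares. The pair with the highest ratio was that of the adjacent genes ICAM1 and ICAM4, found together in 76 cells (59.9–95.1) against 60.5, a ratio of 1.26. Without the groups by total UMIs this ratio was 1.76. Over the 1120 DAC-treated cells with 10000 UMIs or more and at most 50% mitochondrial UMIs, Pearson's r of the log-scaled counts was 0.186 for this pair, 0.119 without the 2 cells with the most ICAM1 UMIs, and 0.105 without the 10 highest. These cells share 1 library, and r is given as a description. For ICAM4 and ICAM5, the next adjacent pair, r was 0.107, and for every other pair it was 0.0618 or less.

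Levels of the other members were also compared by the ICAM1 count of the cell. In the 708 filtered DAC-treated cells without ICAM1, ICAM4 was at 3.17 CPM (2.59–3.84), in 325 cells with 1 or 2 ICAM1 UMIs at 3.81 CPM (2.94–4.87), and in 87 cells with 3 or more at 5.52 CPM (3.64–8.04). The intervals of all 3 classes overlapped, and the share of cells with ICAM4 was 11.3%, 15.1%, and 25.3%, in classes whose median UMIs per cell also differed, at 44989.5, 49718, and 55827. Conversely, ICAM1 was at 14.1 CPM (13.0–15.2) in the 969 cells without ICAM4 and at 34.8 CPM (30.9–39.1) in the 151 cells with it. Without the cell with the most ICAM1 UMIs in each class these levels were 13.7 CPM (12.7–14.8) and 25.8 CPM (22.4–29.6), and without the 5 highest they were 12.9 CPM (11.8–13.9) and 16.7 CPM (13.9–19.8). ICAM1 was higher with ICAM4 in 7 of 10 groups of like total UMIs. ICAM2 was at 10.2, 9.12, and 10.8 CPM in the same classes, with overlapping intervals. ICAM3 was at 14.5 CPM (13.3–15.9) in cells without ICAM1 and at 21.9 CPM (17.9–26.5) in cells with 3 or more, but the cell with 33 ICAM3 UMIs is among the latter, and without it their level was 15.4 CPM (12.1–19.3).

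Genes around the 19p13 members were compared in the same way. Of 15 other genes listed within 100 kb, 12 had 20 UMIs or more, and 2 of these had a ratio of 2 or more and 0 had a ratio of 0.5 or less, with a median log2 ratio of 0.54. Over all genes tested these shares were 22.8% and 7.86%. ZGLP1, a zinc finger gene located beyond ICAM5, had 54 and 176 UMIs, a ratio of 2.76 (2.02–3.81). CDC37, which encodes a cochaperone of kinases, had 6749 and 17150 UMIs, a ratio of 2.15. The ratios of the 12 genes ranged from 0.837 to 2.76, below that of ICAM1 in each case.

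The other 10 compared genes within 100 kb of the 19p13 members had ratios below those of ZGLP1 and CDC37. RAVER1, next to ICAM3, had 35 and 50 UMIs, a ratio of 1.21 (0.769–1.92). FDX2, a mitochondrial ferredoxin gene, was at a ratio of 1.35, TYK2, a Janus kinase gene, at 1.56, and MRPL4, a gene of the mitochondrial ribosome, at 1.08. DNMT1, which encodes the maintenance DNA methyltransferase that DAC traps, lies within 100 kb of ICAM1 and had 5731 and 12758 UMIs, a ratio of 1.88 (1.82–1.94). ICAM5, between ICAM4 and ZGLP1, had a lower ratio than either. The lowest ratio among the 12 genes was 0.837 (0.628–1.11), for AC011511.1. AC011511.2 and AC011511.3, noncoding RNAs near ICAM1, had 2 and 1 UMIs and 2 and 0 UMIs.

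**Figure D4:**
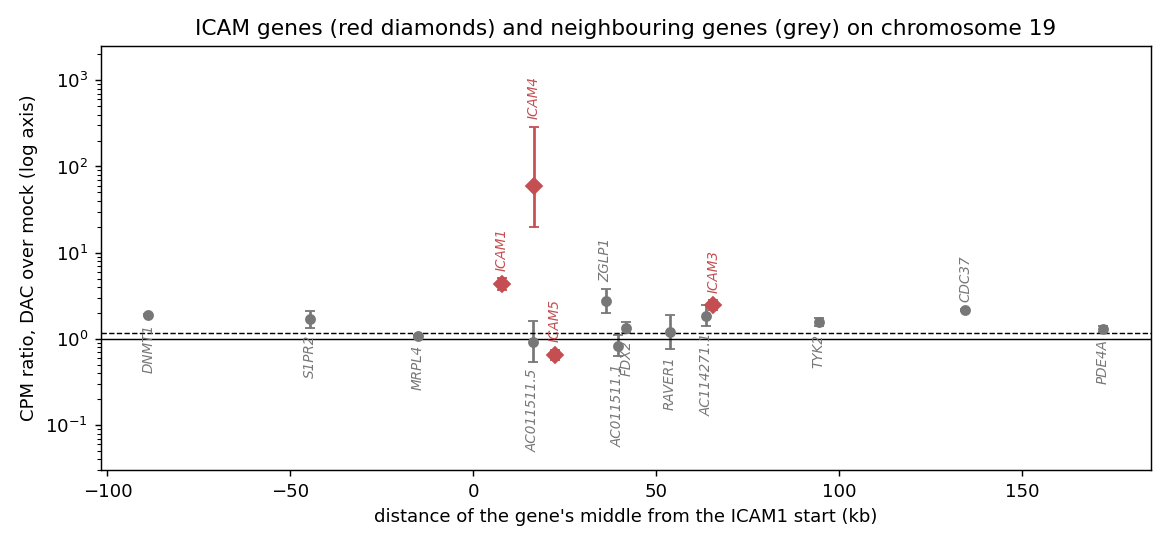
CPM ratio of DAC-treated to mock-treated cells (log axis, with 95% intervals) for the ICAM genes on 19p13 (red diamonds) and the neighbouring genes with 20 UMIs or more (grey circles) against the distance in kb of the middle of each gene from the start of ICAM1. The solid line marks a ratio of 1 and the dashed line the median of the 20252 genes with UMIs in both libraries. ICAM4 at 59.2 stands above ICAM1 at 4.33 and ICAM5 at 0.653, its neighbours on either side.

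Near ICAM2 on 17q, 3 of 8 genes had 20 UMIs or more. CD79B, which encodes a chain of the B cell receptor complex, had 32 and 733 UMIs, a ratio of 19.4 (13.6–28.5). SCN4A, a sodium channel gene of muscle, had 42 and 45 UMIs, a ratio of 0.906 (0.581–1.41). ERN1, which encodes the stress sensor IRE1 of the endoplasmic reticulum, had 789 and 561 UMIs, a ratio of 0.601 (0.538–0.671). The ratio of ICAM2 was above that of each.

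The genes whose counts followed ICAM1 most closely from cell to cell included 2 genes of the NF-kB list, BIRC3 and NFKBIA. Over the 1120 filtered DAC-treated cells and 6177 genes with 1000 UMIs or more, the highest Pearson's r of log-scaled counts was 0.337 for SDC4, a syndecan gene, followed by BIRC3 (0.322), NFKBIA (0.300), and the immediate early genes DUSP1 (0.261) and JUNB (0.251). SDC4 was at 115 CPM in cells with ICAM1 and at 68.8 CPM in cells without. BIRC3, an inhibitor of apoptosis, was at 34.0 and 17.6 CPM, and NFKBIA, the inhibitor of NF-kB, at 106 and 79.1 CPM. The correlations were lower for the other members: the highest was 0.184 for ICAM2, with CCDC107, then TIMP2, PLA2G16, IFI35, and TNIP1, and 0.130 for ICAM3, with C1orf122, then ASAH1, MGAT1, UBALD1, and NDUFA8. ICAM4 and ICAM5 had fewer than 500 UMIs in DAC-treated cells and were not compared in this way.

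A list of 18 NF-kB target genes without ICAM1 was higher in DAC-treated cells with more ICAM1. In filtered DAC-treated cells the summed level of the list was 315 CPM (309–321) in cells without ICAM1, 384 CPM (375–393) in cells with 1 or 2 UMIs, and 758 CPM (734–783) in cells with 3 or more. The median over single cells was 258, 300, and 449 CPM, and without the 5 cells with the most UMIs of the list the summed level was 301, 356, and 571 CPM. The list was higher in cells with ICAM1 in 10 of 10 groups of like total UMIs. In filtered mock-treated cells it was 174, 188, and 552 CPM, but the highest class had only 7 of the 8 cells with 3 or more ICAM1 UMIs. That class was at 291 CPM without the cell with the most UMIs of the list. The mock-treated medians over single cells were 154, 151, and 260 CPM. Without the 5 highest cells of each class the levels were 170, 157, and 116 CPM, which leaves out most of the 7 cells. With ICAM1 the list was higher in 6 of 10 mock-treated groups.

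Single genes of the list were compared between the 87 filtered DAC-treated cells with 3 or more ICAM1 UMIs and the 708 without ICAM1. Their levels were not recomputed without the highest cells. The neutrophil chemokine CXCL8 was at 110 CPM with 3 or more ICAM1 UMIs and at 3.54 CPM without ICAM1, on 539 and 116 UMIs. CCL20 was at 14.3 and 1.43 CPM, BIRC3 at 63.0 and 17.6 CPM, and TNF at 8.59 and 1.53 CPM. NFKB2, a subunit of NF-kB, differed less, at 74.7 and 50.8 CPM. IL6 had 0 UMIs in both classes.

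The 16 genes of the JAK-STAT interferon response, which share IRF1 with the NF-kB list, differed less with ICAM1. In filtered DAC-treated cells they were at 398 CPM (392–405) in cells without ICAM1, at 405 CPM (396–415) with 1 or 2 UMIs, and at 422 CPM (404–441) with 3 or more. In filtered mock-treated cells they were at 306, 324, and 449.5 CPM, the last in 7 cells.

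Among the same filtered DAC-treated cells, the NF-kB list was at 359 CPM (354–365) in cells without ICAM4 and at 471 CPM (456–486) in cells with it, and leaving out the 5 highest cells of each class brought these to 344 and 369 CPM. The median over single cells was 278 and 316 CPM, and the list was higher with ICAM4 in 8 of 10 groups of like total UMIs. For ICAM2 the list was at 538 CPM in 47 cells with 3 or more UMIs and at 362 CPM in cells without, and without the 5 highest it was at 346 and 338 CPM, which leaves out a larger part of the 47 cells than of the 797 without ICAM2. The median over single cells was 320 and 270 CPM in these classes, and the list was higher in cells with ICAM2 in 9 of 10 groups of like total UMIs. For ICAM3 the order was the reverse, at 399 CPM in cells without and 317 CPM in cells with 3 or more UMIs, with medians over single cells of 286 and 281 CPM. For ICAM5 it was at 376 CPM in cells without and 377 CPM in cells with the gene. It was higher with ICAM3 in 4 of 10 groups of like total UMIs and with ICAM5 in 8 of 10. The JAK-STAT list was at 395 CPM (389–401) in cells without ICAM2 and 419 CPM (410–429) in cells with it, higher in 9 of 10 groups, and it was higher with ICAM4 in 8 of 10. For ICAM3 it was at 418 CPM (410–426) in cells without and at 360 CPM (344–378) in cells with 3 or more UMIs, and higher with the gene in 5 of 10 groups.

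**Figure D5:**
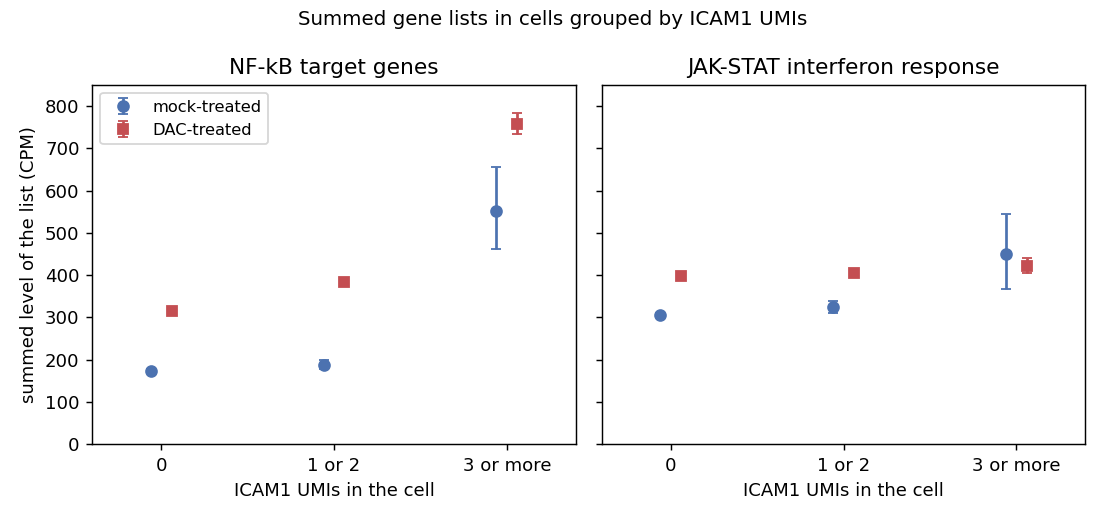
Summed level in CPM of 18 NF-kB target genes (left) and 16 genes of the JAK-STAT interferon response (right) in cells with 0, 1 or 2, and 3 or more ICAM1 UMIs, for filtered mock-treated (blue circles) and DAC-treated (red squares) cells, which have 10000 UMIs or more and at most 50% mitochondrial UMIs, with 95% intervals for counting error. After DAC the NF-kB list goes from 315 to 758 CPM across the classes and the JAK-STAT list lies between 398 and 422 CPM, and the highest mock-treated class rests on 7 cells.

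Between the libraries, the NF-kB list had a higher median ratio than the JAK-STAT list. Of 18 genes, 17 could be compared, 9 had a ratio of 2 or more and 0 had a ratio of 0.5 or less, with a median log2 ratio of 1.39. Over all genes tested these values were 22.8%, 7.86%, and 0.29. Of the 17 genes, 2 had fewer than 20 UMIs without DAC and were compared only through their UMIs with DAC. CXCL1, a neutrophil chemokine, had 75 and 934 UMIs, a ratio of 10.5, and NFKBIA had 1699 and 5266 UMIs, a ratio of 2.62. TNF had 0 and 164 UMIs, at least 46.2-fold higher when 0 is set to 3 counts over the library. Of the 16 JAK-STAT genes, 15 could be compared and 4 had a ratio of 2 or more (22.8% of all genes tested), among them TAP1, a peptide transporter gene, at 2.27. The median log2 ratio of the 15 was 0.40. GBP2, 1 of the 4, had 13 and 117 UMIs and was compared only through its UMIs with DAC. Over all 16 listed, 13 had a higher CPM after DAC and 3 a lower one.

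The integrin receptors of ICAM proteins were almost without UMIs in HCT116. ITGB2, the common beta chain, had 3 and 38 UMIs, ITGAL had 2 and 17, ITGAM had 3 and 19, and ITGAD had 3 and 7. ITGAX had 68 and 42 UMIs, a ratio of 0.522 (0.347–0.778). Of these 5 genes, 4 had a higher CPM after DAC and 1 a lower one. Of 13 other integrin subunits, 11 could be compared, and 1 was 2-fold or more higher (22.8% of all genes), ITGA4 with 0 and 74 UMIs, and 1 was 0.5-fold or lower (7.86%), ITGA3 at a ratio of 0.407. Their median log2 ratio was 0.42.

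Of 20 other adhesion molecules of the immunoglobulin superfamily, 15 could be compared, 5 had a ratio of 2 or more (22.8% of all genes) and 0 had a ratio of 0.5 or less, with a median log2 ratio of 0.59. Of the 15, 3 had fewer than 20 UMIs without DAC, and over all 20 listed, 15 had a higher CPM after DAC and 4 a lower one. JAM3, a junctional adhesion molecule, resembled ICAM4 in its counts, with 2 and 175 UMIs, a ratio of 74.0 (20.2–616). L1CAM had 171 and 716 UMIs, a ratio of 3.54, and MCAM had 386 and 1138, a ratio of 2.49. PECAM1 of endothelium and platelets had 0 and 46 UMIs. VCAM1, another cytokine-inducible ligand of leukocyte integrins, had 0 UMIs in both libraries.

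Proteins that bind the cytoplasmic tails of ICAM proteins were abundant at the RNA level. All 11 genes of this list could be compared, 2 had a ratio of 2 or more (22.8% of all genes) and 0 had a ratio of 0.5 or less (7.86%), with a median log2 ratio of 0.50. EZR, which encodes the membrane linker ezrin, had 51781 and 51224 UMIs, a ratio of 0.836, and FLNA, a filamin gene, was at a ratio of 2.55. Of 8 enzymes that shed ICAM-1 or ICAM-5 from the surface, 7 could be compared, 3 had a ratio of 2 or more (22.8% of all genes) and 1 had a ratio of 0.5 or less (7.86%), with a median log2 ratio of 0.30. Of the 7, 2 had fewer than 20 UMIs without DAC, and over all 8 listed, 5 had a higher CPM after DAC and 3 a lower one. MMP9 had 84 and 264 UMIs, MMP7 had 68 and 25, and ADAM17 had 1605 and 1357.

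Finally, DAC-treated cells with and without each member were compared by the percent of their UMIs that came from genes low in mock-treated cells. These were the 14099 genes without the ICAM genes among them. The median was 1.17% in the 323 filtered cells with ICAM2 and 1.09% in cells without, and it was higher with ICAM2 in 9 of 10 groups of like total UMIs. For ICAM4 it was 1.19% in 151 cells and 1.11% in cells without, higher in 8 of 10 groups. Both genes belong to the 14099, but their own UMIs were left out of this percent. For ICAM1, ICAM3, and ICAM5, which do not belong to the 14099, it was 1.12%, 1.11%, and 1.12% in cells with the gene. It was 1.11% in cells without each, and higher with the gene in 6, 6, and 7 of 10 groups.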

How the data were processed

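HCT116 cells were analyzed by scRNA-seq, with 1 mock-treated and 1 DAC-treated library made with a droplet kit that tags the 3′ ends of transcripts. Reads were aligned to hg38 by the authors with Cell Ranger, and they deposited UMI counts as whole numbers, not normalized. The annotation release and filters on cells are not given in the sources used here. Genes were matched by Ensembl identifier, and positions were taken from GENCODE release 44. Tools were Python 3.11.15, matplotlib 3.10.9, pandas 2.3.3, scipy 1.17.1, and numpy 2.4.6.

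No deposited cell was left out, and no doublet caller was run, since 2 cells of the same line cannot be told apart by markers. UMIs were summed over cells and scaled to the library total (CPM). CPM have exact Poisson intervals, ratios exact conditional binomial intervals, and shares exact Clopper-Pearson intervals, at the 95% level. A count of 0 was set to 3 counts over the library in a ratio. Genes with 20 UMIs or more over both libraries were compared with a fold of 2. Filtered cells had 10000 UMIs or more and at most 50% mitochondrial UMIs, and correlations used the natural log of 1 plus UMIs per 10000.

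The family, taken by name, the gene lists, and alternatives were chosen with earlier results of these data known. Named were the 5 ICAM genes, neighbours within 20 kb or past the fold, the most abundant genes of each list and those past the fold, and the 5 genes with the highest correlation to each member with 500 UMIs or more. DNMT1, markers with few UMIs, and single genes by ICAM1 class were named after their values were seen, and leaving out the highest cells was chosen at that point too. Computations were tested on simulated counts. Scaling, depth, filters, and the fold minimum were varied. Since each treatment had 1 library, no test was made.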

Additional observations from a re-analysis of the deposited data

How the results depend on the processing

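No paired analysis was possible because each treatment had 1 library. The 5 CPM ratios kept their direction under each of 35 alternatives, of which 32 gave a value inside the counting interval and 3 did not: with median-of-ratios size factors the ratio was 3.67 for ICAM1, 2.10 for ICAM3, and 0.554 for ICAM5. With these factors, 3192 genes were 2-fold or more higher and 1985 were 0.5-fold or lower, in place of 3966 and 1365. With a minimum of 100 UMIs, 2209 genes were higher, and with no minimum 2098 were lower. The cause of these moves was not tested, apart from the number of genes compared.

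The differences in the share of cells kept their direction under each of 25 alternatives, of which 17 moved their size. In percentage points for ICAM1, ICAM2, ICAM3, and ICAM4, they were 17.5, 19.2, 16.2, and 9.14 as reported, 8.42, 7.65, 6.97, and 3.28 after thinning to 10000 UMIs, and 1.21, 0.733, 0.766, and 0.373 after thinning to 1000 UMIs. In filtered cells they were 25.5, 28.8, 26.7, and 13.3, and with 3 UMIs or more 4.86, 2.68, 4.34, and 0.571. For ICAM5 thinning to 1000 UMIs gave -0.333 in place of -3.00. Fewer UMIs per cell give fewer detected cells by construction. DAC-treated cells with 2 or more ICAM genes were 1.00 times the number from the shares, and 1.13 times without groups by total UMIs. Leaving out the cell with the most UMIs of a gene was chosen after the data were seen. The ratios of ICAM2 and ICAM4 rest on 2 and 3 mock-treated UMIs.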

Other observations

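Fibroblast markers, which had no part in the comparisons above, were also examined beside the ICAM genes. Of 8 markers, 7 had a higher CPM after DAC and 1 a lower one, beside a median log2 ratio of 0.29 over all genes tested. THY1, which encodes another small immunoglobulin-fold surface protein and an integrin ligand, had 1 and 332 UMIs, a ratio of 281 (50.02–11118). As above, the mock-treated value comes before the DAC-treated one. COL1A1 had 533 and 1112 UMIs, and DCN had 0 and 31. The summed level of the list was 10.9 and 25.6 CPM.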
